A study of Rattus norvegicus with 3 samples.

Results

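Genes for the enzyme complexes of oxidative phosphorylation were examined in NR8383 cells, an established line of rat alveolar macrophages, which are the phagocytes of the lung surface. A gene was taken if its platform symbol starts with Nduf (but not Ndufaf), Sdha, Sdhb, Sdhc, Sdhd, Uqcr, Cox4, Cox5, Cox6, Cox7, Cox8 or Atp5, or is Cyc1. This gave 82 of 15924 measured genes, read by 100 probes: 33 in complex I, 5 in complex II, 8 in complex III, 18 in complex IV and 18 in complex V. By name and annotated gene type, 75 of the 82 are subunit genes. The other 7 are the complex II assembly factor Sdhaf2, the supercomplex factor Cox7a2l, Emc8 (platform symbol Cox4nb), Dmac2 (Atp5sl), Dmac2l (Atp5s) and the pseudogenes Cox6c-ps1 and Atp5hl1. Current symbols are used throughout, with the platform symbol beside them at first mention where it differs.

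Cells of the CNT-1 group and of the CNT-2 group were kept for 24 h with impurity-free single-wall carbon nanotubes of the kind that gives each group its name. The nanotube dose was 0.1 mg/mL, and the medium held 1 mg/mL bovine serum albumin. Cells of the control group are labelled both as untreated and as an albumin solvent control, so whether they received albumin is not settled. RNA was hybridised to 1-colour Agilent arrays, and each group has 1 deposited column. No difference below therefore has a replicate check, no p-value was computed, and "higher" and "lower" describe these columns only. In RNA from a whole culture, less RNA of a gene in every cell and fewer cells that express the gene cannot be told apart.

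Oxidative phosphorylation passes electrons from NADH, at complex I, and from succinate, at complex II, through coenzyme Q, complex III and cytochrome c to complex IV, which reduces oxygen to water. Complexes I, III and IV pump protons across the inner mitochondrial membrane, and complex V, the ATP synthase, makes ATP as they flow back. Macrophages stimulated through Toll-like receptors are known to lean on glycolysis while their respiration is restrained. Most subunits are encoded in the nucleus, and those encoded by mitochondrial DNA were not analysed here.

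The upstream sequences of 4 genes on which the results turn are shown first. They are Cox6a2, the gene furthest above control in the CNT-2 column, Uqcrq, the gene next below it in that order, Ndufc2, the gene furthest below control, and Atp5me (platform symbol Atp5i), the subunit gene furthest below control in complex V. Each line gives the 250 bases before the annotated start from RefSeq, 5′ to 3′, with capitals marking motif letters found on either strand.
Cox6a2 (GRCr8, chr1:192219717-192219966, minus strand): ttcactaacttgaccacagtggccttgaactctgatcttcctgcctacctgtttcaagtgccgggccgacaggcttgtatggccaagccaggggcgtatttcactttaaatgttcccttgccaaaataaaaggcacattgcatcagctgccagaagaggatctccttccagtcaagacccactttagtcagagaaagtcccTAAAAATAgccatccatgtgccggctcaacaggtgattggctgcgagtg
Uqcrq (GRCr8, chr10:38089979-38090228, minus strand): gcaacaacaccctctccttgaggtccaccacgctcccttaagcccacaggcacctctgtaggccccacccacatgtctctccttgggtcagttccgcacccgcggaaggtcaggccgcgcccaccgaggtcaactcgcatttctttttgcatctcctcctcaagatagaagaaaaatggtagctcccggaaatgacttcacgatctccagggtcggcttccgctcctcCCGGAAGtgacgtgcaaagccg
Ndufc2 (GRCr8, chr1:161122940-161123189, plus strand): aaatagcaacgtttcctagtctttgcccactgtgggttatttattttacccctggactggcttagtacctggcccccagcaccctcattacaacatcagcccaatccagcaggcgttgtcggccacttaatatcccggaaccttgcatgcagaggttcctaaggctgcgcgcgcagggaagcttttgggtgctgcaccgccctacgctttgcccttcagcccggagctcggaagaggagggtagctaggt
Atp5me (GRCr8, chr14:1464610-1464859, plus strand): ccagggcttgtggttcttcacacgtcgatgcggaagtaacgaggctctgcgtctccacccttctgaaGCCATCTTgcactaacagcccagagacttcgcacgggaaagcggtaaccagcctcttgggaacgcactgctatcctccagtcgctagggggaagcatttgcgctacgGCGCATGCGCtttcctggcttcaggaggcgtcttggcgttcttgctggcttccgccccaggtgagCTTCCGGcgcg
The motifs searched were GCATGCGC for NRF-1 and CCGGAAG for ETS factors such as GABPA, both known activators of respiratory chain genes, AAGATGGC for YY1, and TAAAAATA for the muscle factor MEF2. All were chosen after sequences had been seen. The MEF2 letters begin 49 bases before the start of Cox6a2, and the ETS letters 22 bases before the start of Uqcrq. Ndufc2 had none of the 4 motifs in this window. Atp5me had the YY1 letters on the other strand, the NRF-1 letters on both strands in 1 overlapping run of capitals, and the ETS letters on the other strand 11 bases before the start. Of the 69 members with an upstream sequence, 21 (30.4%) held the ETS letters, against 11.5% of the 13145 measured genes with a sequence. The NRF-1 letters were in 9 of the 69 members and in 3.51% of the genes. The YY1 letters were in 2 members (2.90%) and in 1.86% of the genes, and the MEF2 letters in 1 member (1.45%), Cox6a2, and in 1.78% of the genes. A match is a description of the letters and no evidence of binding.

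All values below are deposited values or differences between them, on the log2 scale of the deposited table, in which 1 unit is taken as 2-fold, and a gene's value is the mean over its probes. The table is centred per probe, so it holds no expression level, genes cannot be ranked by abundance, and the labelled cell type could not be checked against its markers. In the CNT-1 column these genes lay close to control. Their median CNT-1 minus control was -0.01, with a range from -0.43 to 0.20, and 46 of 82 lay below 0, against 57.7% of all genes. As many as 70 of 82 lay within 0.1 of 0, against 32.2% of all genes. Within 0.25 of 0 lay 80 of 82, against 61.5% of all genes. No member was 0.5 or more above or below control, where 4.96% of all genes were above and 8.18% below. At 1 unit the counts of members were likewise 0, where 1.16% of all genes were above and 2.15% below. Among genes whose probes all lie near 0 in the control column, a class that holds 77 of the members, the quartiles of CNT-1 minus control were -0.14 and 0.13 over all such genes and -0.06 and 0.03 over the members.

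In CNT-2 the genes lay slightly lower on the deposited scale, with a few far from the rest. The median CNT-2 minus control was -0.12, beside 0.04 over all genes, and turned to 0.003 with quantile normalization. Its position 0.16 below the median of all genes was the same under each centring and was 0.02 with quantile normalization. Quantile normalization gives all columns 1 distribution. Since the control values are bunched near 0, it can enlarge small control values, which limits what it can say about this table. There were 60 of 82 members below 0, against 46.4% of all genes. That count was 80 with 75th percentile centring, against 73.6% of all genes, and Cox6a2 and Uqcrq alone were left above control. It was 72 with spike-in centring, against 62.5% of all genes, and 41 with quantile normalization, against 48.2%. The sign of many small differences thus depends on the scaling, for all genes as for the members. Of the members, 53 lay within 0.25 of 0, against 37.9% of all genes, and 22 within 0.1, against 16.4%. Their quartiles were -0.24 and 0.01, against -0.27 and 0.47 for all genes. Only Cox6a2 was at least 1 unit higher, where 10.1% of all genes were, and 3 were at least 1 unit lower, where 6.56% of all genes were: Ndufc2, Cox6c-ps1 and Ndufs4. At 0.5 unit, 2 members were higher, against 23.4% of all genes, and 9 were lower, against 16.1%. Of these 9, only 5 are subunit genes.

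The nanotube columns were also set against each other. The median CNT-2 minus CNT-1 was -0.10, beside 0.15 over all genes, and 60 of 82 members lay below 0, against 36.7% of all genes. Cox6a2 was 1.52 higher in CNT-2, against 9.32% of all genes at least 1 unit higher, and Ndufc2 and Cox6c-ps1 had values of -1.68 and -1.14, against 4.65% of all genes at least 1 unit lower. At 0.5 unit, 2 members were higher, against 24.4% of all genes, and 6 lower, against 12.7%. Within 0.25 of 0 lay 56 members, against 37.5% of all genes, and within 0.1 lay 27, against 14.9%. This comparison shares a column with each of the others and is no independent evidence. Control probes also differed between the columns. The 10 spike-in probes, which report RNA added in the laboratory, had CNT-1 minus control of -0.05 ± 0.07, CNT-2 minus control of 0.23 ± 0.10 and CNT-2 minus CNT-1 of 0.27 ± 0.07 (SD over probes). The negative-control probe had -0.27, -0.10 and 0.16 in the same comparisons, so it lay furthest from control in CNT-1. On the spike-in scale the median of the members was -0.34 and that of all genes -0.18. The part of labelling and scaling in the members' position was not tested.

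**Figure D1:**
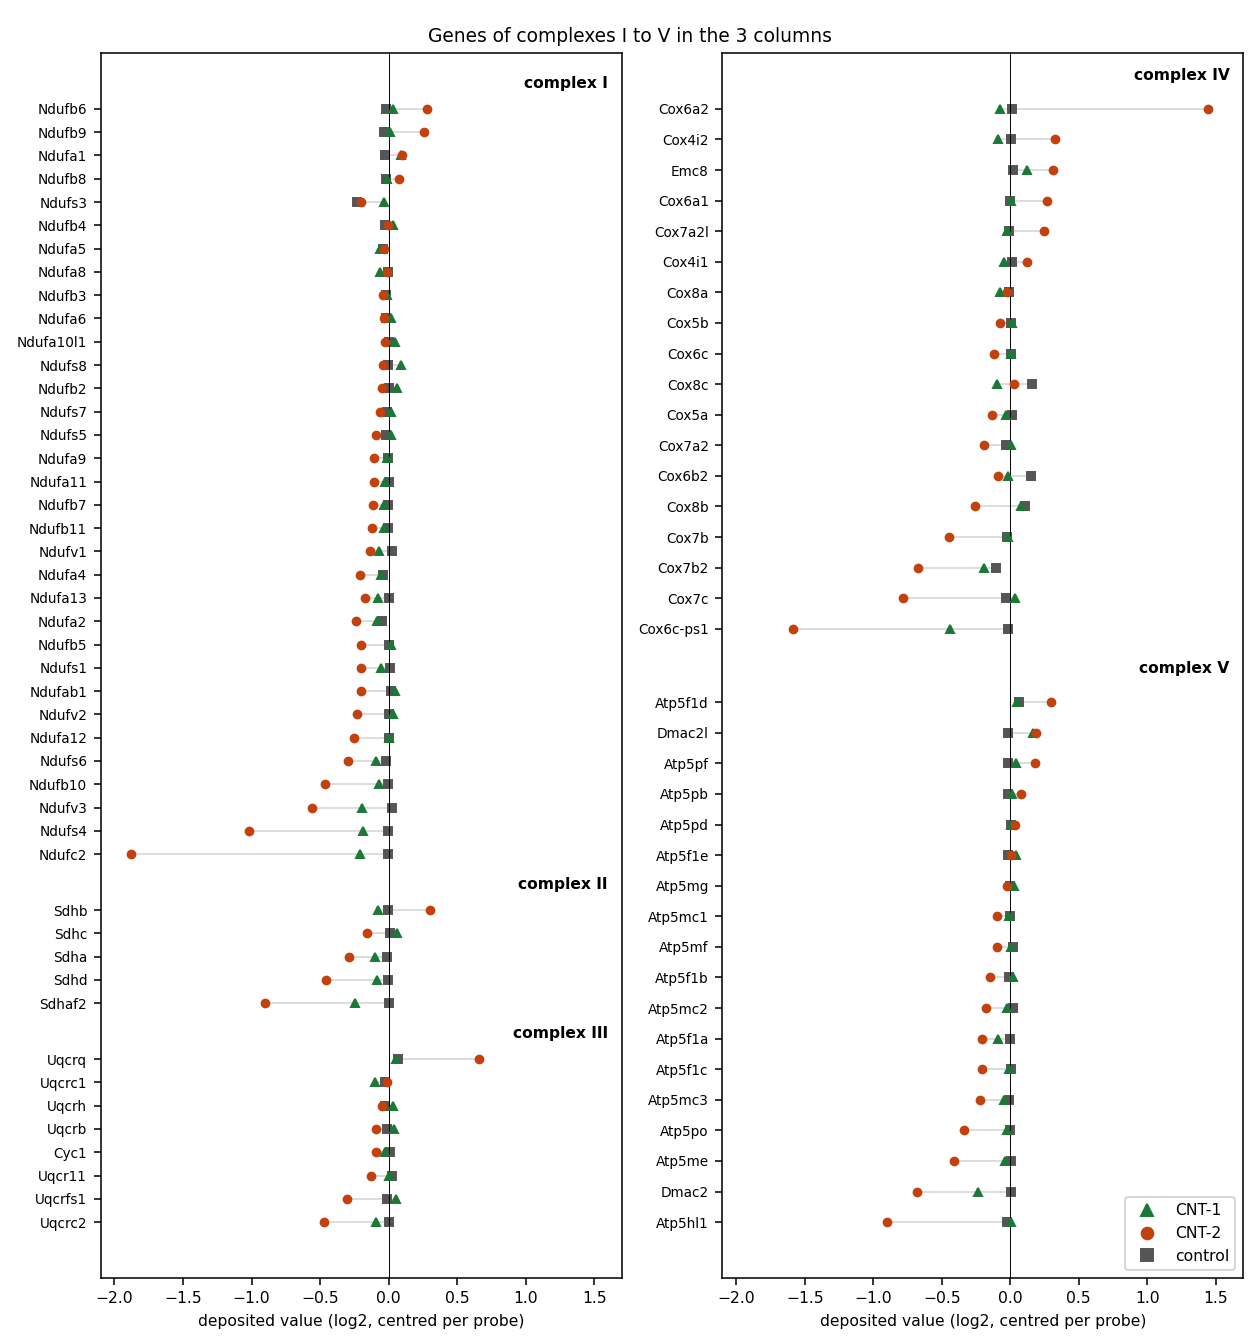
Deposited values (x axis, log2 and centred per probe) of the 82 genes in the CNT-1, CNT-2 and control columns, grouped by complex and sorted by CNT-2 minus control; a gene with several probes is shown at their mean. Most CNT-1 and control symbols overlap near 0, whereas CNT-2 spreads from -1.88 for Ndufc2 to 1.44 for Cox6a2.

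By complex, the medians of CNT-1 minus control were 0 for complex I, -0.08 for complex II, -0.02 for complex III, -0.04 for complex IV and -0.01 for complex V. That of complex II stayed below 0 with each centring, that of complex IV turned to 0.009 with spike-in centring, those of complexes III and V turned positive with median and spike-in centring, and all 5 were positive with quantile normalization. The medians of CNT-2 minus control were -0.11, -0.28, -0.09, -0.13 and -0.13 for complexes I to V, and with quantile normalization those of complexes I, III and IV turned positive. The counts below 0 in CNT-2 were 26 of 33, 4 of 5, 6 of 8, 12 of 18 and 12 of 18, against 46.4% of all genes. The median of complex II rests on 5 genes and was -0.22 over its 4 subunit genes. The medians of complexes I, III, IV and V thus lay from -0.13 to -0.09, and that of complex II lay lower. Complex IV was the widest, with an SD over genes of 0.59. Against it stood 0.39, 0.44, 0.31 and 0.29 in complexes I, II, III and V. Over subunit genes alone the SD of complex IV was 0.50, against 0.39, 0.32, 0.31 and 0.19 in complexes I, II, III and V. The width of complex IV includes the pseudogene Cox6c-ps1 at -1.57 and the muscle isoform Cox6a2 at 1.43.

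**Figure D2:**
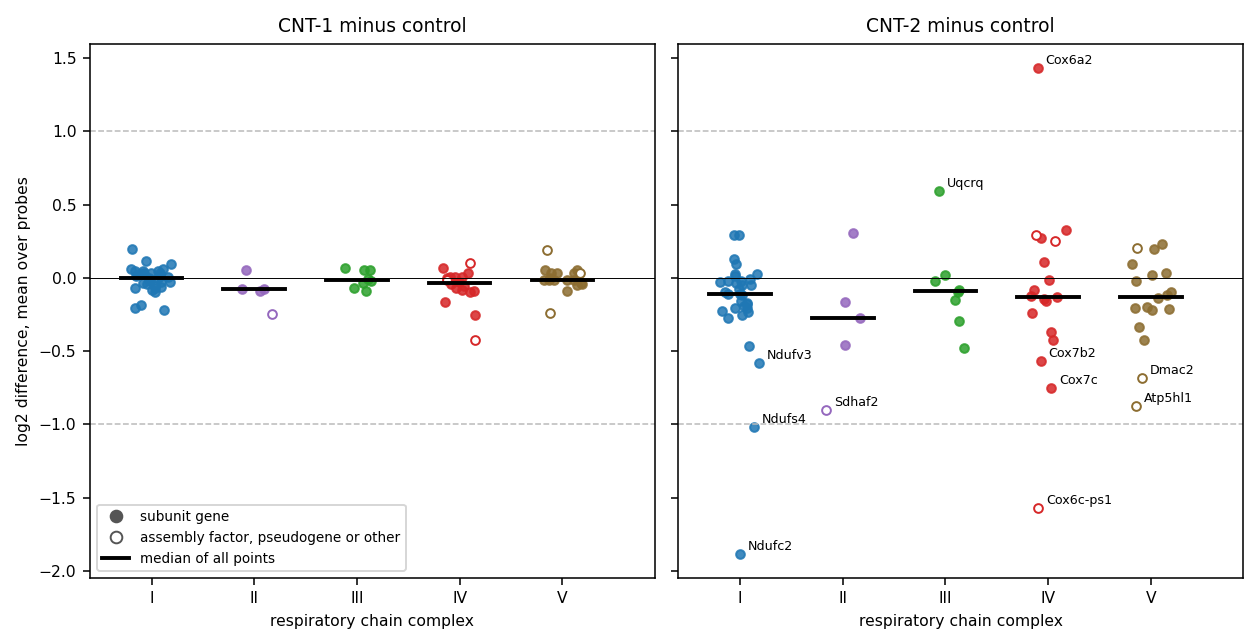
CNT-1 minus control (left) and CNT-2 minus control (right) for each gene by complex (y axis, log2 difference); filled points are subunit genes, open points are the other genes the symbols bring in, bars are medians over all points, and genes 0.5 or more from 0 are named. The left panel stays between -0.43 and 0.20, while the right panel spans -1.88 to 1.43.

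Complex I, the NADH dehydrogenase, has a matrix arm, with an N module that binds NADH and a Q module that passes electrons to coenzyme Q, and a membrane arm that pumps protons. Below control in CNT-2 lay 46.4% of all genes. All 9 measured N module genes lay there, with a median of -0.23, against 3 of 5 Q module genes, with a median of -0.04, and 11 of 16 membrane arm genes, with a median of -0.06. A centring moves every gene alike and cannot alter this order. With quantile normalization the medians of the N module, the Q module and the membrane arm were -0.09, 0.07 and 0.04, and the N module genes Ndufs6, Ndufa2 and Ndufa6 lay above control. In CNT-1 the medians of the N module, the Q module and the membrane arm were -0.06, 0.02 and 0.01. The module lists were chosen with earlier results known, and the differences between them were not tested. The 6 measured core subunits, among them those that hold the flavin and the iron-sulfur clusters, ranged from -0.23 to 0.03 in CNT-2.

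The lowest N module gene was Ndufs4, an accessory subunit that is added late in assembly and whose loss causes a mitochondrial brain disease in humans. Its deposited values were -0.19 in the CNT-1 column, -1.02 in the CNT-2 column and -0.001 in the control column, so CNT-2 stood apart from the other 2. Ndufv3, a flavoprotein-fraction accessory subunit, was at -0.19 in CNT-1, -0.56 in CNT-2 and 0.02 in control. Ndufs6, a zinc-binding accessory subunit, and Ndufa12 followed with CNT-2 minus control of -0.28 and -0.26.

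Ndufc2, a membrane arm subunit, was the lowest gene of all members, with deposited values of -0.21 in the CNT-1 column, -1.88 in the CNT-2 column and -0.001 in the control column. Its CNT-2 minus control was -1.88 ± 1.54 (probe SD, 2 probes), since 1 probe was at -0.79 and the other at -2.97. Both probes were low in CNT-2 and they differed in size by more than 2 units. Ndufb10, another membrane arm subunit, had CNT-2 minus control of -0.46. At the other end, the membrane arm subunits Ndufb6, Ndufb9 and Ndufa1 had CNT-2 minus control of 0.29, 0.29 and 0.13. Ndufs3, a core Q module subunit, was the highest member in CNT-1 minus control at 0.20, but it was also the member lowest in the control column, at -0.23, beside -0.03 in CNT-1 and -0.20 in CNT-2. With quantile normalization its CNT-1 minus control was 1.33 and its CNT-2 minus control 1.19. In control 72.6% of all named probes lay within 0.1 of 0, so that method can enlarge a control value such as this. No size is therefore read from Ndufs3.

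Complex II, the succinate dehydrogenase, also belongs to the tricarboxylic acid cycle. Its iron-sulfur subunit Sdhb was at -0.08 in the CNT-1 column, 0.30 in the CNT-2 column and -0.003 in the control column, while the membrane anchor Sdhd was at -0.08, -0.46 and -0.004 in the same columns. The flavoprotein Sdha had CNT-2 minus control of -0.28 and the anchor Sdhc of -0.17. The subunits of this complex thus lay on both sides of control in CNT-2, except with 75th percentile centring, where all lay below. Sdhaf2, which helps attach the flavin to Sdha and is no subunit, was at -0.90 ± 0.17 in CNT-2 and at -0.25 ± 0.04 in CNT-1 (probe SD, 2 probes).

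In complex III, the cytochrome bc1 complex, the small subunit Uqcrq was at 0.06 in the CNT-1 column, 0.66 in the CNT-2 column and 0.07 in the control column. Its CNT-2 minus control of 0.59 was the highest value of any subunit gene outside Cox6a2. The core protein Uqcrc2 was at the other end with -0.48, and the Rieske iron-sulfur protein Uqcrfs1 had -0.29 ± 0.68 (probe SD, 2 probes), its probes lying at 0.18 and -0.77. Uqcrc1, the other core protein, had 0.02, and the cytochrome Cyc1 -0.10. Uqcr11, a small subunit, had -0.15, and Uqcrh, which helps cytochrome c bind, had -0.02. In Uqcrb, a small subunit read by 4 probes, CNT-2 minus control ranged from -0.20 to 0.02.

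Complex IV, cytochrome c oxidase, has several subunits with isoforms that differ between tissues. The muscle isoform Cox6a2 was at -0.07 in the CNT-1 column, 1.44 in the CNT-2 column and 0.01 in the control column. CNT-2 minus control was 1.43 ± 0.25 (probe SD, 2 probes), a ratio of 2.70, with both probes high at 1.26 and 1.61, whereas CNT-1 minus control was -0.09. Its value was 0.99 with 75th percentile centring and 0.78 with quantile normalization, both under 1 unit. The table holds no level, so whether Cox6a2 gave a signal above background in control cannot be told. The ubiquitous partner Cox6a1 was at 0.002 in CNT-1, 0.27 in CNT-2 and 0.001 in control. Cox4i2, the lung isoform known for its induction by low oxygen, had CNT-2 minus control of 0.32, and its ubiquitous partner Cox4i1 had 0.11. With 75th percentile centring Cox4i2 had -0.11 and Cox4i1 -0.33, and Cox6a1 also lay below control.

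The other isoform genes lay at or below control in CNT-2. Among testis isoforms, Cox7b2 had CNT-2 minus control of -0.57, which turned to 0.28 with quantile normalization, Cox6b2 had -0.24 and Cox8c -0.13. The muscle isoform Cox8b had -0.37. Cox8c lay within 0.03 of the negative-control probe in every column and Cox6b2 lay within 0.01 of it in the control column alone, at 0.10 from it in CNT-1 and -0.14 in CNT-2. Since the table holds no level, whether either gene gave a signal cannot be told from it. Of the widely expressed forms, Cox7b had -0.42, Cox7a2 -0.16 and Cox8a -0.02. Ndufa4, named for complex I but now assigned to complex IV, had -0.17, and counting it here left the complex IV median at -0.13.

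Cox7c, a small subunit of complex IV with no isoform partner here, had CNT-2 minus control of -0.75 ± 0.92 (probe SD, 2 probes), with 1 probe at -0.10 and the other at -1.40. The lowest entry of the complex was the transcribed pseudogene Cox6c-ps1, at -0.44 in the CNT-1 column, -1.58 in the CNT-2 column and -0.01 in the control column. The functional gene Cox6c had CNT-2 minus control of -0.12, so the 2 probes differed by over 1 unit, and how far either also reads the RNA of the other was not tested. Emc8, a gene of the endoplasmic reticulum that only neighbours Cox4i1 in the genome, had 0.29, and Cox7a2l, which joins complexes III and IV in supercomplexes, had 0.25.

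Complex V had the smallest SD over subunit genes in CNT-2 minus control, but not the smallest distance between the quartiles. That distance was 0.23 in complex V, against 0.19, 0.27, 0.18 and 0.35 over the subunit genes of complexes I to IV. The 15 subunit genes of complex V lay between -0.42 and 0.23 in CNT-2 minus control, with an SD over genes of 0.19, and between -0.09 and 0.06 in CNT-1 minus control. In the catalytic F1 part, Atp5f1d (platform symbol Atp5d) was at 0.05 in the CNT-1 column, 0.30 in the CNT-2 column and 0.06 in the control column. Atp5f1a (Atp5a1), Atp5f1b (Atp5b) and Atp5f1c (Atp5c1), which form the body of F1, had CNT-2 minus control of -0.21, -0.14 and -0.21. Among membrane and stalk subunits, Atp5me was at -0.04 in the CNT-1 column, -0.41 in the CNT-2 column and 0.009 in the control column, and the stalk subunit Atp5po (Atp5o) had -0.34. Atp5pf (Atp5j), another stalk subunit, had 0.20.

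The 3 genes Atp5mc1 (Atp5g1), Atp5mc2 (Atp5g2) and Atp5mc3 (Atp5g3) encode the same mature subunit of the rotating c ring. Their CNT-2 minus control values were -0.10, -0.20 ± 0.15 (probe SD, 2 probes) and -0.22 ± 0.55 (probe SD, 3 probes). In Atp5mc3, 2 probes lay at 0.09 and 0.11 and the other at -0.86. Among genes that are no subunits, the pseudogene Atp5hl1 had -0.87 in CNT-2 and 0.04 in CNT-1, and Dmac2, an assembly factor of complex I despite its platform symbol, had -0.68 ± 0.06 in CNT-2 and -0.24 ± 0.06 in CNT-1 (probe SD, 2 probes). Dmac2l had 0.21 in CNT-2 and 0.19 in CNT-1.

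Probes of the same gene limit how far single values can be read. Of 14 members with 2 or more probes, Ndufc2, Cox7c, Uqcrfs1 and Atp5mc3 had a probe SD of at least 0.3 in CNT-2 minus control, which is 28.6% against 34.3% of all 3910 genes with 2 or more probes. In 5 of the 14 the probes lay on both sides of 0. In CNT-1 minus control no member reached a probe SD of 0.3, against 15.6% of all genes. For the other 68 members, read by 1 probe, no such check exists.

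**Figure D3:**
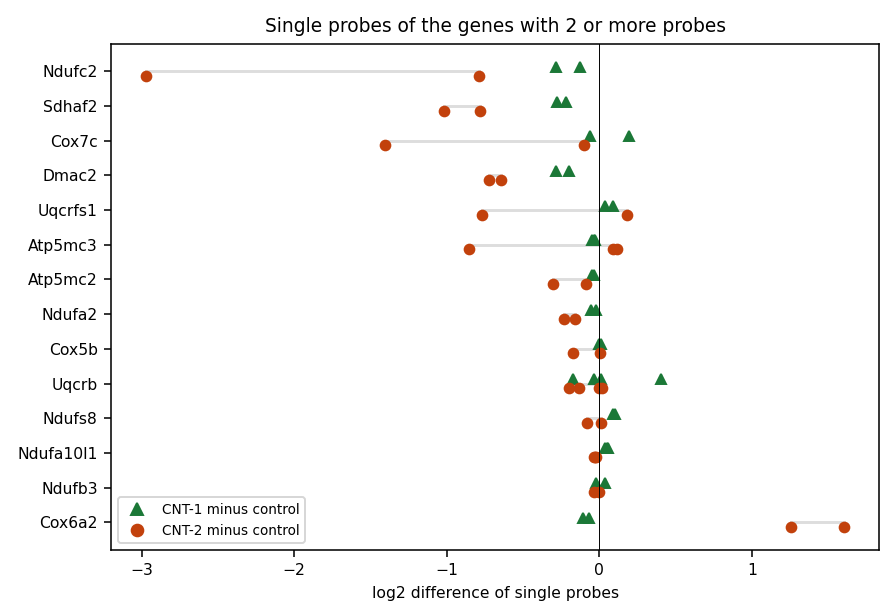
CNT-1 minus control and CNT-2 minus control (x axis, log2 difference) for each probe of the 14 genes with 2 or more probes, sorted by the mean of CNT-2 minus control. The CNT-2 probes of Ndufc2 lie at -2.97 and -0.79 and those of Cox7c at -1.40 and -0.10, while those of Cox6a2 both lie above 1.

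Among all genes, the members were set beside 2 other large sets of housekeeping genes. The 68 genes of the mitochondrial ribosome, which translates the subunits encoded by mitochondrial DNA, had medians of 0.01 in CNT-1 minus control and -0.17 in CNT-2 minus control. Of these 68, 47 lay below 0 in CNT-2, against 46.4% of all genes. The 78 genes of the cytosolic ribosome had medians of 0.02 in CNT-1 minus control and -0.03 in CNT-2 minus control. Of these 78, 47 lay below 0 in CNT-2, against the same 46.4%. The members, at -0.01 and -0.12, lay between these sets in CNT-2. In CNT-1 minus control 85.4% of the members lay within 0.1 of 0, beside 77.9% of the mitochondrial and 97.4% of the cytosolic ribosomal genes, and no gene of the 3 sets was 0.5 from control, so the closeness to control in CNT-1 was shared. The differences between the sets were not tested.

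**Figure D4:**
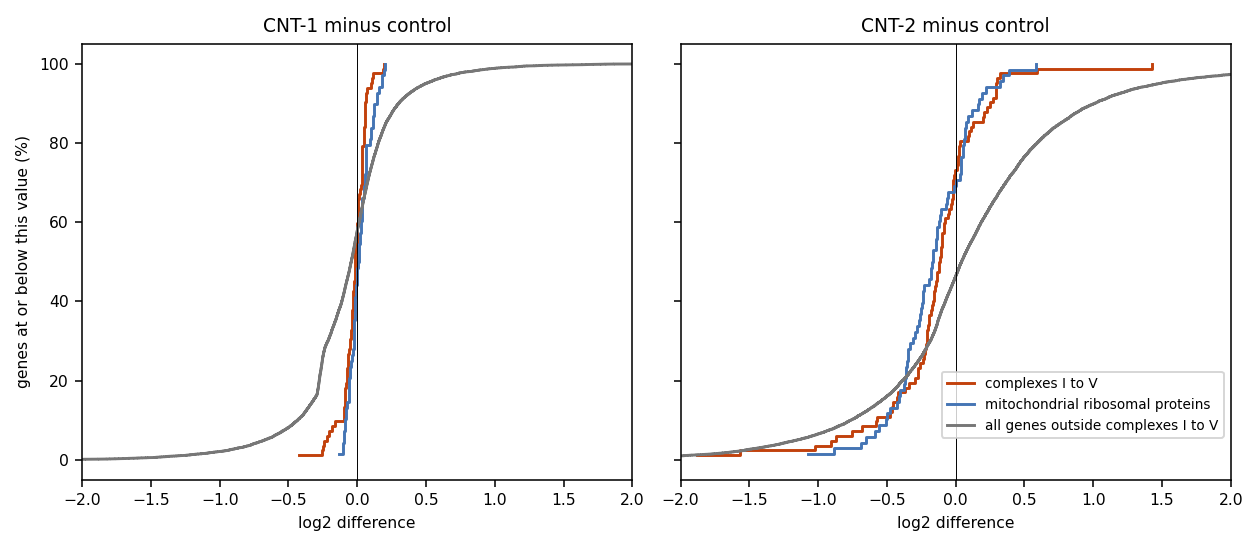
Share of genes (y axis, %) at or below each log2 difference (x axis) for the 82 genes of complexes I to V, the 68 mitochondrial ribosomal protein genes and the 15842 genes outside complexes I to V, in CNT-1 minus control (left) and CNT-2 minus control (right); genes beyond 2 units are outside the frame. The curve of the members is steeper than that of the other genes in both panels and at 0 stands at 73.2% in CNT-2, against 46.3% for the other genes.

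Lists of genes that build, feed and use the chain were described in the same way, and none of their differences from the chain was tested. Sdhaf2 among the assembly factors, and Cox7a2l and Cox4i2 in the list of supercomplex and hypoxia-linked genes, are also members. In CNT-2 minus control the shares of all genes to read each count against are 10.1% at least 1 unit higher and 6.56% at least 1 unit lower. Of 39 measured assembly factors, none was at least 1 unit higher in CNT-2 and 1 was at least 1 unit lower. At 0.5 unit 5 were higher, against 23.4% of all genes, and 7 lower, against 16.1%, and the median was -0.09, or 0.004 with quantile normalization. Tmem70, needed for complex V, was at -1.08, Cox18, an insertase for complex IV, at -0.998 ± 0.92 (probe SD, 2 probes), and Ndufaf6 at -0.92, whereas the complex I factors Ndufaf2, Timmdc1 and Ndufaf7 were at 0.98, 0.72 and 0.68. In CNT-1 the assembly factors ranged from -0.25 to 0.27. Of 16 genes for the upkeep and expression of mitochondrial DNA, 12 lay below control in CNT-2, against 46.4% of all genes. The median of the 16 was -0.30, or -0.05 with quantile normalization. The nuclease Mgme1 was at -1.50, the packaging factor Tfam at -0.60 and the polymerase Polg at -0.50 ± 0.07 (probe SD, 2 probes), while Mterf2 was at 1.44, Polg2, the accessory subunit of that polymerase, at 0.82 and Tfb1m at 0.18. Ndufaf2, Mgme1 and Mterf2, each read by 1 probe, were at -0.179, 0.247 and -0.165 in the control column, so not near 0. Over the alternatives run their CNT-2 minus control ranged from 0.54 to 1.45, from -1.94 to -1.25 and from 1.01 to 1.64.

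For electron carriers and coenzyme Q the median in CNT-2 was -0.15, or -0.0045 with quantile normalization. At least 1 unit higher was 1 of 20 genes, against 10.1% of all genes, and 1 was lower, against 6.56%. Coq8a, an atypical kinase of coenzyme Q synthesis, was at -3.08 in CNT-2 and -0.61 in CNT-1, and Coq10b, a coenzyme Q binding protein, was at 1.25 ± 0.26 in CNT-2 and 0.27 in CNT-1 (probe SD, 2 probes). Coq8a was read by 1 probe, and its CNT-2 minus control ranged from -3.52 to -1.60 over the alternatives run. The methyltransferase Coq3 was at -0.78 ± 0.01 (probe SD, 2 probes) and the testis cytochrome c Cyct at -0.77, whereas cytochrome c itself, Cycs, was at 0.39 ± 0.13 (probe SD, 3 probes) and the sulfide oxidase Sqor at 0.61 ± 0.08 (probe SD, 2 probes). With quantile normalization Cyct was at -0.007, and with 75th percentile centring Cycs was at -0.05. For the tricarboxylic acid cycle and pyruvate entry the median in CNT-2 was 0.20, which turned to -0.23 with 75th percentile centring and to -0.02 on the spike-in scale. In this list 2 of 19 were at least 1 unit higher, against 10.1% of all genes: Pdhx, a pyruvate dehydrogenase component, at 1.80 and Mpc1, a subunit of the mitochondrial pyruvate carrier, at 1.18. None was 1 unit lower, against 6.56% of all genes. Dld, a shared dehydrogenase subunit, was at 0.58, Idh2 at -0.98 ± 0.01, Suclg2 at -0.80 ± 0.11 and the other carrier subunit Mpc2 at -0.37 ± 0.21 (probe SD, 2 probes each). In CNT-1 Pdhx was at 0.94 and every other gene of that list was within 0.25 of 0.

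For carriers that export ATP or leak protons the median over 14 genes was 0.06 in CNT-2, which turned to -0.38 with 75th percentile centring, to -0.17 on the spike-in scale and to -0.04 with median centring. In this list 1 gene was at least 1 unit higher, against 10.1% of all genes, and 1 lower, against 6.56%. The adenylate kinase Ak4 was at 2.11, the ATP synthase inhibitor Atp5if1 (platform symbol Atpif1) at 0.52 and the outer membrane channel Vdac1 at 0.49 ± 0.05 (probe SD, 3 probes), while the uncoupling proteins Ucp1, Ucp2 and Ucp3 were at -1.01, -0.67 and -0.46. Ak4, read by 1 probe, was at -0.103 in the control column. Of the 12 transcription regulators none was 1 unit from control in CNT-2, with Esrra at 0.56, Ppard at 0.53, Gabpb1 at 0.22 ± 0.18 (probe SD, 2 probes), Ppara at -0.03, Perm1 at -0.21 and the coactivator Ppargc1a at -0.34. In CNT-1 Ppargc1a was at -0.61. With quantile normalization Ppargc1a was at 0.40 in CNT-2 and -0.08 in CNT-1. In the list of supercomplex and hypoxia-linked genes, which was chosen with earlier results known, 5 of 11 were at least 1 unit higher, against 10.1% of all genes, and 2 lower, against 6.56%. Lonp1 was at 1.04 and Mcl1 at 1.21 ± 0.30 (probe SD, 2 probes), whereas Cox4i2, Cox7a2l and Higd2a were at 0.32, 0.25 and 0.13. The mitophagy receptor Bnip3 was at 2.30, the supercomplex and hypoxia gene Higd1a at 1.66 ± 0.03 (probe SD, 2 probes) and the kinase Pdk1, which restrains pyruvate dehydrogenase, at 1.27. Its relatives Pdk2, Pdk3 and Pdk4 were at -1.59, -0.51 ± 0.06 and -2.68 ± 3.41 (probe SD, 2 probes each for Pdk3 and Pdk4), so the probes of Pdk4 disagreed widely. In CNT-1 Pdk4 was at -1.98 ± 0.78 (probe SD, 2 probes), and no other gene of these lists was 1 unit from control in that column, while Bnip3 was at 0.67, Higd1a at 0.44 and Pdk1 at 0.20. The median of the supercomplex and hypoxia list in CNT-2 was 0.32, and -0.11 with 75th percentile centring. Over the alternatives run, the lowest CNT-2 minus control of Bnip3, Higd1a and Pdk1 was 1.53, 1.09 and 0.72, and the highest of Pdk2 was -0.90. Both counts at 1 unit in this list thus depend on the processing.

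**Figure D5:**
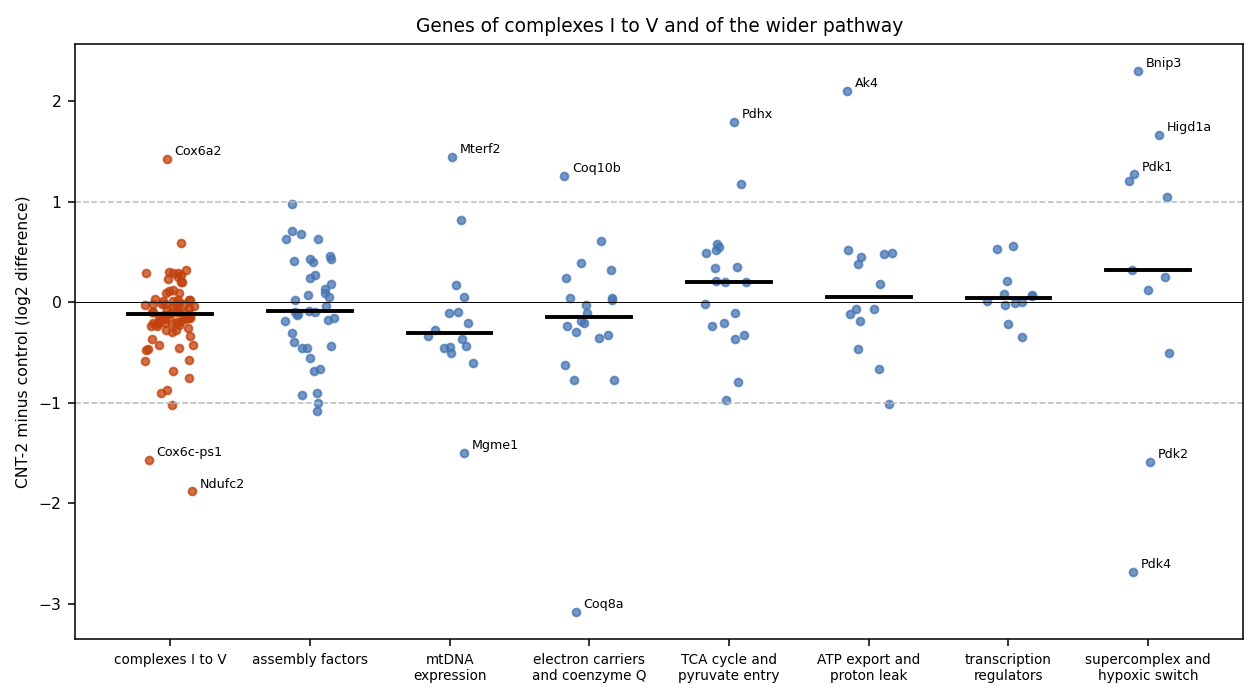
CNT-2 minus control (y axis, log2 difference) for the 82 genes of complexes I to V and for the genes of 7 further lists of the pathway; bars are medians and dashed lines mark 1 unit. The complexes hold 1 gene above and 3 below the dashed lines, and the list medians run from -0.30 to 0.32 on the deposited scale. Sdhaf2, Cox7a2l and Cox4i2 are shown both among the complexes and in a list.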

How the data were processed

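Expression was measured in 3 samples, 1 each for CNT-1, CNT-2 and control. The submitters' processing notes name Agilent Feature Extraction, version 10.7.3.1. The deposited table holds 41103 probes in 3 columns of differences on a presumed log2 scale, already centred per probe by the authors, with a baseline that matches no single column. No source used here states the log base, that baseline, the direction or any normalization between arrays, and higher was taken as more RNA. Column medians were -0.04 for CNT-1, 0.06 for CNT-2 and 0.01 for control. An n of 4 stands in the design text, unexplained. The number of arrays limits the precision.

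Columns were subtracted per probe and averaged over the probes of a gene with pandas 2.3.3 in Python 3.11.15. The platform annotation gives 20932 probes 1 symbol, 0 several and 20171 none. Symbols were updated through the RefSeq table of GRCr8, by accession for 17415 probes. A probe was called near 0 if its control value lay within 0.1 of 0, as for 95 of 100 member probes and 72.6% of all named probes, and background-like within 0.02 of the negative-control probe. No test was made between single columns. The summary was also run on simulated noise with a known shift put in for each complex, which checks the code alone and none of the results. Named were the 3 highest and 3 lowest genes of each complex and list in CNT-2 minus control, members 0.5 or more from 0 and isoform genes. Every gene of the supercomplex and hypoxia list was named too. Other members named for their role were chosen after their values were seen. The members, lists and rules were chosen with earlier results of these data known.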

Additional observations from a re-analysis of the deposited data

How the results depend on the processing

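No paired analysis was possible because each group has 1 column. Leaving out a replicate and a filter on expression level could not be run for want of replicates and levels. Over the 14 alternatives run, the count below 0 in CNT-1 minus control moved to 71 with 75th percentile centring, 26 on the spike-in scale, and 13 with quantile normalization, each of 82, and to 7 of the 14 genes with 2 or more probes. With 75th percentile centring the median over members in CNT-2 minus control was -0.556 and the medians of complexes I to V were -0.547, -0.714, -0.529, -0.566 and -0.567, with 0 members at least 1 unit higher, against 5.26% of all genes, and 9 lower, against 14.4%. In CNT-2 minus CNT-1 they were -0.484 over all members and -0.48, -0.603, -0.485, -0.466 and -0.492 by complex, with 6 lower, against 9.82% of all genes. With spike-in centring CNT-2 minus control gave -0.343 over all members, -0.334, -0.501, -0.316, -0.353 and -0.354 by complex and 5 lower, against 9.83% of all genes, and CNT-2 minus CNT-1 gave -0.373, then -0.368, -0.491, -0.373, -0.354 and -0.381, and 5 lower, against 7.82%. These shifts move every gene alike, by construction.

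Quantile normalization gave 0.116 over all members and 0.173, 0.079, 0.137, 0.104 and 0.112 by complex in CNT-1 minus control, with 1 member at least 1 unit higher, against 3.69% of all genes. The medians of complexes II to V thus turned positive. It gave -0.077 for complex II and 1 lower member in CNT-2 minus control, and 0 higher and 0 lower in CNT-2 minus CNT-1. The median of members stayed below that of all genes in CNT-2 minus control and in CNT-2 minus CNT-1 under every alternative run. The centrings and the counting of Ndufa4 in complex IV cannot change this position, by construction. With quantile normalization the median of members minus that of all genes was -0.02 in CNT-2 minus control and -0.13 in CNT-2 minus CNT-1. With genes of 2 or more probes, complex II rests on Sdhaf2 alone, at -0.246, -0.902 and -0.657 in CNT-1 minus control, CNT-2 minus control and CNT-2 minus CNT-1, 13 of the 14 members lay below 0 in CNT-2 minus control and in CNT-2 minus CNT-1, and 1 was at least 1 unit lower in each. With subunits only, 1 was lower in CNT-2 minus CNT-1. Without the restricted isoforms, 0 were at least 1 unit higher in CNT-2 minus control and in CNT-2 minus CNT-1. The tricarboxylic acid cycle median in CNT-2 minus control reversed to -0.234 with 75th percentile centring and -0.0219 on the spike-in scale, and in CNT-2 minus CNT-1 to -0.211, -0.0993 and, with quantile normalization, -0.09. That of the supercomplex and hypoxia list reversed to -0.114 in CNT-2 minus control with 75th percentile centring.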
